A study of Homo sapiens with 6 samples.

Results

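Mediator is a multisubunit coactivator that bridges enhancer-bound transcription factors and RNA polymerase II at promoters. Its head and middle contact the polymerase, its tail receives activators, and a separable kinase module of CDK8 or CDK19, cyclin C, MED12 and MED13 regulates the rest of the complex. p300 (EP300) and CBP (CREBBP) are paralogous acetyltransferases that mark active enhancers, and in embryonic stem cells these coactivators occupy the enhancers of pluripotency genes. They have been reported to bind RNA of HERVH, an endogenous retrovirus family with high transcription in the human pluripotent state. The genes were chosen by name: every array probe whose gene name was MED followed by a number, with or without a final L, or CDK8, CDK19, CDC2L6 (an older symbol of CDK19), CCNC, EP300 or CREBBP. This gave 52 of the 47230 probes of the array and 35 of its 31334 gene names, counting CDK19 under its older symbol.

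The cells came from H1, a widely used line of human embryonic stem cells, at passage 32 and grown without feeder cells in conditioned medium with basic FGF. In the HERVH shRNA samples 2 µg of a pSUPER plasmid expressing a HERVH shRNA was transfected, and in the control samples 2 µg of the same plasmid type expressing a luciferase shRNA. Cells were harvested after 5 days and their RNA was read on Illumina arrays with 1 colour, giving 3 samples of HERVH shRNA and 3 of control shRNA. The labels name no selection for cells that took up the plasmid. The labels do not say whether the 3 samples of a group came from separate cultures, so the p-values measure the spread between these samples, which may be technical.

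Arrays of 1 group correlated at 0.994 to 0.995 (Pearson, log2 intensities of all probes), and arrays of different groups at 0.968 to 0.972. No gene name on the array contained HERVH, so the depletion itself was not read. Among 10 genes associated with HERVH or its LTR7 promoter, 4 had a probe that fell, 2 had a probe that rose and the others had none past the threshold. Over all gene names of the array 15.6% had a fall and 15.7% a rise past it, and of those with a probe above the median intensity 26.7% and 26.8%. Of the 18 probes of these 10 genes 38.9% passed, against 24.6% of all probes and 45.2% of those above the median, where 14 of the 18 lay. RPL39L, a ribosomal protein paralog, fell 2.52-fold by 1 probe. Its other, brighter probe was 1.16-fold higher in HERVH shRNA cells without overlap, and did not pass (adjusted p = 0.052, limma). That probe did pass, as higher, in 4 of 13 alternative ways of processing. HHLA2, an immune ligand gene, fell 1.80-fold. Probes of ABHD12B, SCGB3A2, GSDMB and KLKB1 had folds (HERVH over control shRNA) between 0.560 and 1.61 where they passed. HHLA1, HHLA3, CALB1 and OC90 did not pass.

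Values are the deposited intensities after quantile normalization between arrays. A probe was called when the adjusted p (limma, Benjamini-Hochberg over all 47230 probes) was under 0.05, and log2 fold changes are HERVH shRNA minus control shRNA with their SE. By this rule 22 of the 52 probes were called, 16 lower and 6 higher in HERVH shRNA cells, against 24.6% of all probes (12.5% lower, 12.1% higher). Most of these probes were bright ones: 44 of the 52 had a mean intensity above the median of the array, and all 22 calls were among these 44. Of all probes above the median, 45.2% were called. The total share called among the brighter probes was thus near that of the array. By direction it was 36.4% lower and 13.6% higher for the 44 probes, against 22.9% lower and 22.3% higher for all brighter probes. The arrays of the 2 groups did not overlap for 30 of the 52 probes, against 34.8% of all probes, and for 29 of the 44 brighter ones, against 56.3% of all brighter probes. Over all 52 probes the median log2 fold change was -0.02, against 0.00 for the array.

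**Figure D1:**
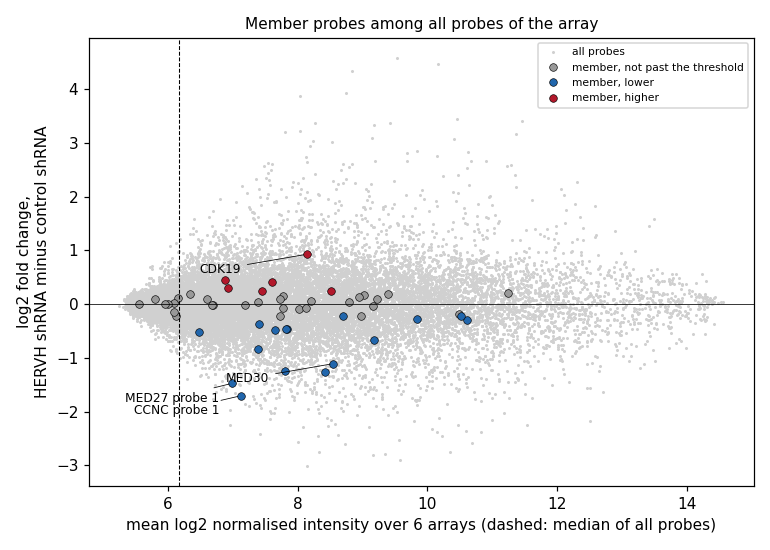
Each grey point is 1 probe of the array, placed by its mean log2 normalised intensity over the 6 arrays and its log2 fold change, HERVH shRNA minus control shRNA. Larger points are the 52 Mediator, p300 and CBP probes, 16 of them lower, 6 higher and 30 not past the threshold, and the 5 lowest lie between -1.11 and -1.70.

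A called fall of more than 2-fold was found for 5 of the 52 probes, against 1.34% of all probes and 2.68% of the brighter ones. These probes belonged to CCNC, MED27 and MED30. None of the 52 probes rose more than 2-fold, where 1.19% of all probes did. By gene, 10 of the 35 genes had a called fall, 6 had a called rise and 19 had neither, and no gene had probes called in both directions. Over all gene names of the array 15.6% had a called fall and 15.7% a called rise, and among those with a probe above the median 26.7% and 26.8%. Among the 32 of the 35 genes with such a probe the shares were 31.2% and 18.8%, so the share with a fall was near that of the array. The promoters of CCNC and MED27, which had the largest falls, and of the paralogs CDK19 and CDK8, which moved in opposite directions, are shown with the sequence motifs found in them. They are windows of 300 bases around the start site from RefSeq (GRCh38.p14), read 5′ to 3′ on the gene's strand, and capitals mark the matches.
CCNC promoter, chr6:99568765-99569064, minus strand: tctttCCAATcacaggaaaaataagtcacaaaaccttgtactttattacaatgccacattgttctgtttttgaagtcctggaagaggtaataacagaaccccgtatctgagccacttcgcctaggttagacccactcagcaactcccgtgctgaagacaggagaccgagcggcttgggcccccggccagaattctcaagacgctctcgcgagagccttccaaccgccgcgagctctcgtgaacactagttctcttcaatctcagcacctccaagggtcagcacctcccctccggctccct
MED27 promoter, chr9:132079818-132080117, minus strand: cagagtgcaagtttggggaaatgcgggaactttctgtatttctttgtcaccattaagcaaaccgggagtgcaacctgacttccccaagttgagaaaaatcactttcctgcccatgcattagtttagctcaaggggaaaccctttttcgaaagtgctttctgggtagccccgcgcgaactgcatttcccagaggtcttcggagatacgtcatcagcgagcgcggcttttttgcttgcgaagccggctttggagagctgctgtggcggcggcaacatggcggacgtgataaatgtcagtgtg
CDK19 promoter, chr6:110815806-110816105, minus strand: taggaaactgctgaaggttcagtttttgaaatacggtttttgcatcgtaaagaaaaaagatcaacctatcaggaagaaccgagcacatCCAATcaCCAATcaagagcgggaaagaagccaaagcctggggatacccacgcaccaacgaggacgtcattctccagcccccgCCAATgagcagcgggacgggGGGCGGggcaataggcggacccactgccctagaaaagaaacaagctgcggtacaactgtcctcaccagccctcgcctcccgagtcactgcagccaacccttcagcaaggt
CDK8 promoter, chr13:26253879-26254178, plus strand: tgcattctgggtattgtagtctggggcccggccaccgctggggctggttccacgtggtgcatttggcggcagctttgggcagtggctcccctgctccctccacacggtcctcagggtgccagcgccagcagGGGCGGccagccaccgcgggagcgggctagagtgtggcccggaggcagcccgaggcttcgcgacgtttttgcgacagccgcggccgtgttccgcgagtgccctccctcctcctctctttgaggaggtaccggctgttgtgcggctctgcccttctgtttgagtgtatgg

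The motifs searched, on both strands, were the SP1 GC box GGGCGG, the ETS core CCGGAAG, the NRF1 core, the cyclic AMP response element TGACGTCA, the CCAAT box, the TATA box TATAAA, the YY1 core AAGATGGC and the octamer ATGCAAAT bound by POU factors. None of them contains another. A gene with several windows was represented by the first listed, which applies to CCNC (2 windows) and CDK19 (3 windows). The CCNC window held a CCAAT box, the CDK19 window CCAAT boxes and a GC box, the CDK8 window a GC box, and the MED27 window no match. Of the 35 genes, 27 had a window. Among these 27, the GC box occurred in 16 (59.3%, against 44.6% of the windows of 27305 genes), the CCAAT box in 10 (37.0% against 35.7%), the ETS core in 7 (25.9% against 10.7%) and the YY1 core in 6 (22.2% against 3.03%). TATAAA was in 2 windows (7.41% against 12.0%), and the NRF1 core, the response element and the octamer were in 1 each (3.70% each, against 1.36%, 1.98% and 1.80%). A match describes the letters only.

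The kinase module, which can detach from the core complex and restrain or assist it, moved in both directions. Of its 10 probes, 3 (30%) were lower and 2 (20%) higher, against 12.5% and 12.1% of all probes. Among all probes above the array median 22.9% were lower and 22.3% higher, and 7 of the 10 probes lay above it. Cyclin C, the activating partner of CDK8 and CDK19, is encoded by CCNC and had 3 probes, numbered here by increasing p like those of other genes. CCNC probe 1 (ILMN_1798705) had intensities of 88.1, 70.2 and 74.6 in HERVH shRNA cells, against 236, 255 and 264 in control shRNA cells. CCNC probe 2 (ILMN_2409395) had 245, 220.2 and 205 in HERVH shRNA cells, against 511, 547 and 537 in control shRNA cells. For both probes every HERVH shRNA array lay below every control array. The log2 fold changes were -1.70 ± 0.09 (SE, n = 3 each, adjusted p = 5.7e-12, limma), a 3.26-fold fall, and -1.25 ± 0.08 (adjusted p = 1.9e-10), a 2.38-fold fall. The HERVH shRNA values of probe 1 lay near the array median of 72.6 and detection was not assessed, so the size of its fall may be understated.

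CCNC probe 3 (ILMN_1676423) did not follow: it had 640.2, 626 and 586 in HERVH shRNA cells and 582, 574 and 572 in control shRNA cells. Its log2 fold change was 0.10 with a 95% interval of -0.06 to 0.26 (limma adjusted p = 0.44). The arrays of the 2 groups did not overlap on this probe either, by a narrow margin in the other direction. Which transcripts each probe reads was not analysed here, so the fall of CCNC holds for 2 of its 3 probes.

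The paralogous kinases of the module moved apart. CDK19 (listed as CDC2L6, ILMN_1676891) had intensities of 385, 390.1 and 392 in HERVH shRNA cells, against 207, 202 and 204 in control shRNA cells. It rose 1.90-fold, a log2 fold change of 0.93 ± 0.07 (limma adjusted p = 3.8e-09), and had the largest rise of the 52 probes. CDK8 (ILMN_1777913) had 81.8, 73.4 and 68.6 in HERVH shRNA cells, against 115, 95.9 and 108 in control shRNA cells. It fell 1.43-fold, a log2 fold change of -0.51 ± 0.09 (limma adjusted p = 1.1e-04). For each kinase the groups did not overlap. The HERVH shRNA values of CDK8 were also near the array median. The log2 difference between the CDK19 and CDK8 probes within an array was 2.39 ± 0.14 in HERVH shRNA cells and 0.94 ± 0.12 in control shRNA cells (SD, n = 3 each). With CDK8 that dim the difference in HERVH shRNA cells is approximate, and it shows unequal change, not relative abundance, since probes differ in brightness for the same amount of RNA. Its exact permutation p was 0.1, the smallest possible, and 0.125 after adjustment over the 10 probe pairs compared in this way.

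**Figure D2:**
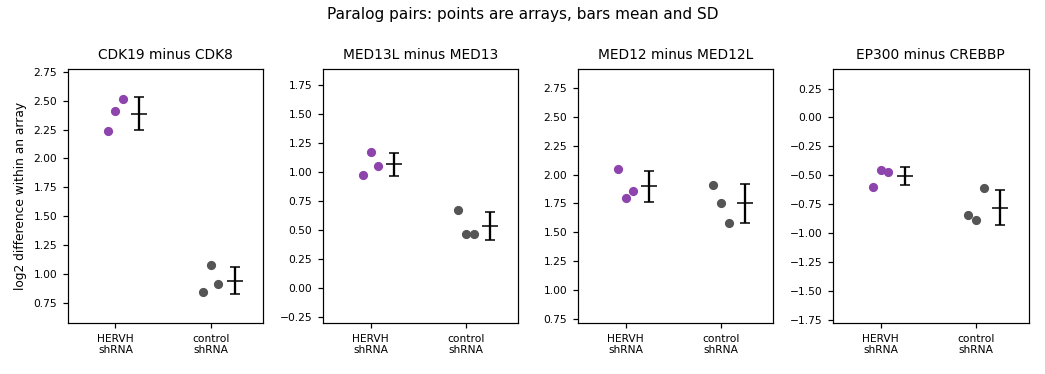
Points are arrays, with the log2 difference between the probes of 2 paralogs within an array on the vertical axis, for HERVH shRNA (left) and control shRNA (right). MED13 is shown by its probe 1 and CREBBP by its probe 2. With the other probe of each gene, not shown, the difference between the groups was smaller (0.46 against 0.53 for MED13, 0.13 against 0.27 for CREBBP). Bars are the mean and SD of 3 arrays, and the CDK19 minus CDK8 difference is higher in HERVH shRNA cells by 1.44, where the CDK8, MED13 and MED12L probes were dim.

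MED12 and MED13 link the kinase to the core complex, and each has a paralog. MED13L had 132, 147 and 127 in HERVH shRNA cells, against 109.9, 107 and 110.3 in control shRNA cells. It rose 1.24-fold (log2 fold change 0.31 ± 0.08, limma adjusted p = 0.0052). The 2 probes of MED13 had log2 fold changes of -0.22 (95% interval -0.39 to -0.05, limma adjusted p = 0.054) and -0.15 (-0.35 to 0.06), and both lay below the median intensity of the array. For MED12 the log2 fold change was 0.15 with an interval of -0.03 to 0.33, and for MED12L, a dim probe, 0.00 with an interval of -0.16 to 0.16. The MED12 to MED12L difference changed by 0.15 (exact permutation p = 0.4).

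Tail and scaffold subunits receive activators and hold the complex together. As grouped here, with MED28 and MED30 among them, they gave 9 of the 22 calls: 7 of their 18 probes were lower and 2 higher. That was 38.9% lower and 11.1% higher, 50% in total. Of all probes 24.6% were called, and of those above the array median 45.2% (22.9% lower, 22.3% higher). Of the 18 probes, 16 lay above that median. MED27, a subunit at the junction of tail and head, fell by all 3 of its probes. Probe 1 (ILMN_1716876) had 95.9, 68.0 and 68.4 in HERVH shRNA cells, against 214, 210.0 and 212 in control shRNA cells. For probe 2 (ILMN_3251445) the values were 152, 155 and 128 in HERVH shRNA cells, against 334, 320 and 376 in control shRNA cells. Replicate 1 of HERVH shRNA was the highest of its group on probe 1, and all 3 arrays of that group remained below the controls on both probes. The falls were 2.77-fold (log2 fold change -1.47 ± 0.10, limma adjusted p = 6.2e-10) and 2.37-fold (-1.24 ± 0.09, adjusted p = 7.4e-10). The HERVH shRNA values of probe 1 were close to the array median, so the size of its fall is uncertain in the same way as for CCNC probe 1.

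MED27 probe 3 (ILMN_1759350) had 200.5, 188 and 197 in HERVH shRNA cells, against 272, 263 and 267 in control shRNA cells. Its log2 fold change was -0.45 ± 0.08 (limma adjusted p = 7.1e-05), a 1.37-fold fall. MED30, a metazoan subunit, had 269, 261 and 234 in HERVH shRNA cells, against 568, 522 and 557 in control shRNA cells. It fell 2.15-fold (log2 fold change -1.11 ± 0.08, limma adjusted p = 9.1e-10), with no overlap between the groups.

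**Figure D3:**
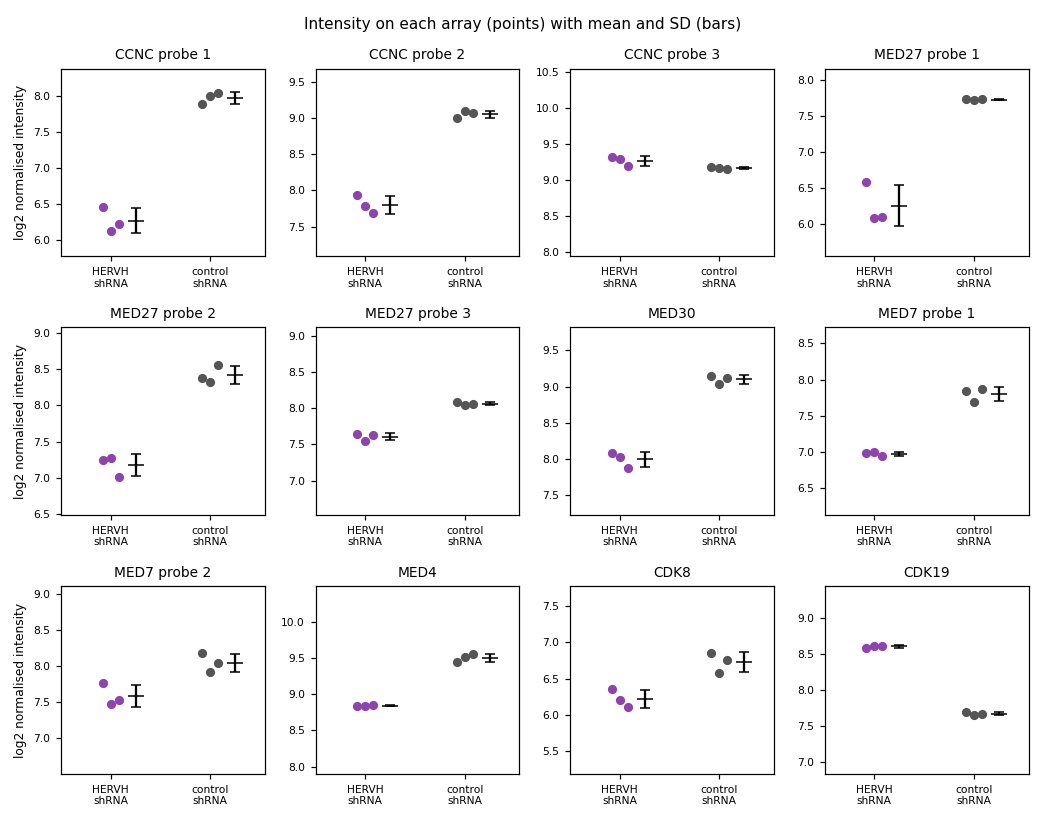
Each panel gives log2 normalised intensity of 1 probe on the 3 HERVH shRNA arrays (left) and the 3 control shRNA arrays (right), with mean and SD as bars and the same 2.6-unit span on every vertical axis. CCNC probes 1 and 2, the MED27 probes, MED30, both MED7 probes, MED4 and CDK8 are lower in HERVH shRNA cells, CDK19 is higher, and CCNC probe 3 differs little.

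Smaller differences were found among the other tail and scaffold subunits. MED16, a tail subunit, had 3 probes with log2 fold changes of -0.49 ± 0.10 (limma adjusted p = 5.2e-04), -0.23 ± 0.08 (adjusted p = 0.034) and -0.22 ± 0.08 (adjusted p = 0.053). Probe 1 of MED16 had 198, 157 and 155 in HERVH shRNA cells, against 259, 237 and 216 in control shRNA cells. MED14, the backbone that joins head, middle and tail, had 394, 380.1 and 381 in HERVH shRNA cells, against 434, 452 and 456 in control shRNA cells. Its log2 fold change was -0.22 ± 0.08 (limma adjusted p = 0.040). This call was lost when any 1 of the 6 arrays was left out, and that of MED16 probe 2 without any array other than control replicate 1, with adjusted p of up to 0.12 for each (limma).

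MED15, the tail subunit that binds SMAD proteins and other activators, rose by 1 of its 2 probes, the one above the array median. That probe had 122, 140.1 and 152 in HERVH shRNA cells, against 111, 98.2 and 92.8 in control shRNA cells, a log2 fold change of 0.45 ± 0.09 (limma adjusted p = 5.6e-04). The other MED15 probe, below the array median, had a log2 fold change of 0.00 (95% interval -0.17 to 0.16). MED23, a tail subunit that receives signals from MAP kinase targets, likewise rose by 1 of its 3 probes, with 222, 224 and 232 in HERVH shRNA cells, against 158, 171 and 178 in control shRNA cells (log2 fold change 0.42 ± 0.08, limma adjusted p = 2.4e-04). A second probe of MED23, also above the array median, had -0.08 (-0.24 to 0.09), so this rise too depends on the probe. MED24, MED25, MED28 and MED29 had no called probe, with log2 fold changes from -0.18 for MED28 to 0.14 for MED29.

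The middle contacts the polymerase and relays signals from tail to head. MED7 and MED4, neighbouring subunits of the middle, both fell. MED7 probe 1 (ILMN_3306173) had 126, 127 and 123 in HERVH shRNA cells, against 230.0, 207 and 234 in control shRNA cells. Its log2 fold change was -0.83 ± 0.08 (limma adjusted p = 4.1e-08), a 1.78-fold fall. MED7 probe 2 fell 1.37-fold, with a log2 fold change of -0.46 ± 0.09 (limma adjusted p = 5.3e-04). MED4 (ILMN_1664641) had 458, 457 and 464 in HERVH shRNA cells, against 701, 730 and 753 in control shRNA cells. It fell 1.58-fold (log2 fold change -0.66 ± 0.08, limma adjusted p = 5.7e-07), with no overlap on any of these probes.

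MED1, the subunit that binds nuclear receptors and marks strong enhancers in stem cells, had 175, 164 and 172 in HERVH shRNA cells and 156, 166 and 178 in control shRNA cells. The groups overlapped, and the log2 fold change was 0.04 with a 95% interval of -0.13 to 0.20, while a probe listed under an older symbol of MED1 fell 1.33-fold. MED26, which recruits elongation factors, had 181, 196 and 192 in HERVH shRNA cells, against 173, 149 and 159 in control shRNA cells (log2 fold change 0.24 ± 0.08, limma adjusted p = 0.033). The MED26 call was lost when arrays were only scaled to a common median (adjusted p = 0.17) and with no further normalization (adjusted p = 0.067). It was also lost without replicate 2 or 3 of either group (up to 0.15). MED10, MED19 and MED21 had log2 fold changes between 0.18 and 0.20 and MED9 and both MED31 probes between -0.21 and 0.00, none past the threshold.

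Of the 10 probes listed here under the head, which binds the polymerase directly, none was called higher and 3 (30%) lower, all by less than 1.3-fold. MED28 and MED30 were counted with the tail and scaffold, so these shares depend on that grouping. Of all probes 12.1% were higher and 12.5% lower, and of those above the array median 22.3% and 22.9%. MED22 had 159, 145 and 144 on probe 1 in HERVH shRNA cells, against 188, 205 and 182 in control shRNA cells (log2 fold change -0.36 ± 0.08, limma adjusted p = 0.0015). Its probe 2 had -0.29 ± 0.08 (limma adjusted p = 0.011). MED6, a conserved head subunit, had 823, 875 and 816 in HERVH shRNA cells, against 1068, 972 and 1003 in control shRNA cells (log2 fold change -0.27 ± 0.08, limma adjusted p = 0.011). The call of MED6 was lost without control replicate 1 (adjusted p = 0.058), and that of MED22 probe 2 without HERVH shRNA replicate 1 or control replicate 2 (adjusted p = 0.065 and 0.063). MED17, the head's scaffold, had a log2 fold change of 0.09 (95% interval -0.07 to 0.25). MED8, MED11, MED18 and MED20 lay between -0.10 and 0.20 without passing.

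**Figure D4:**
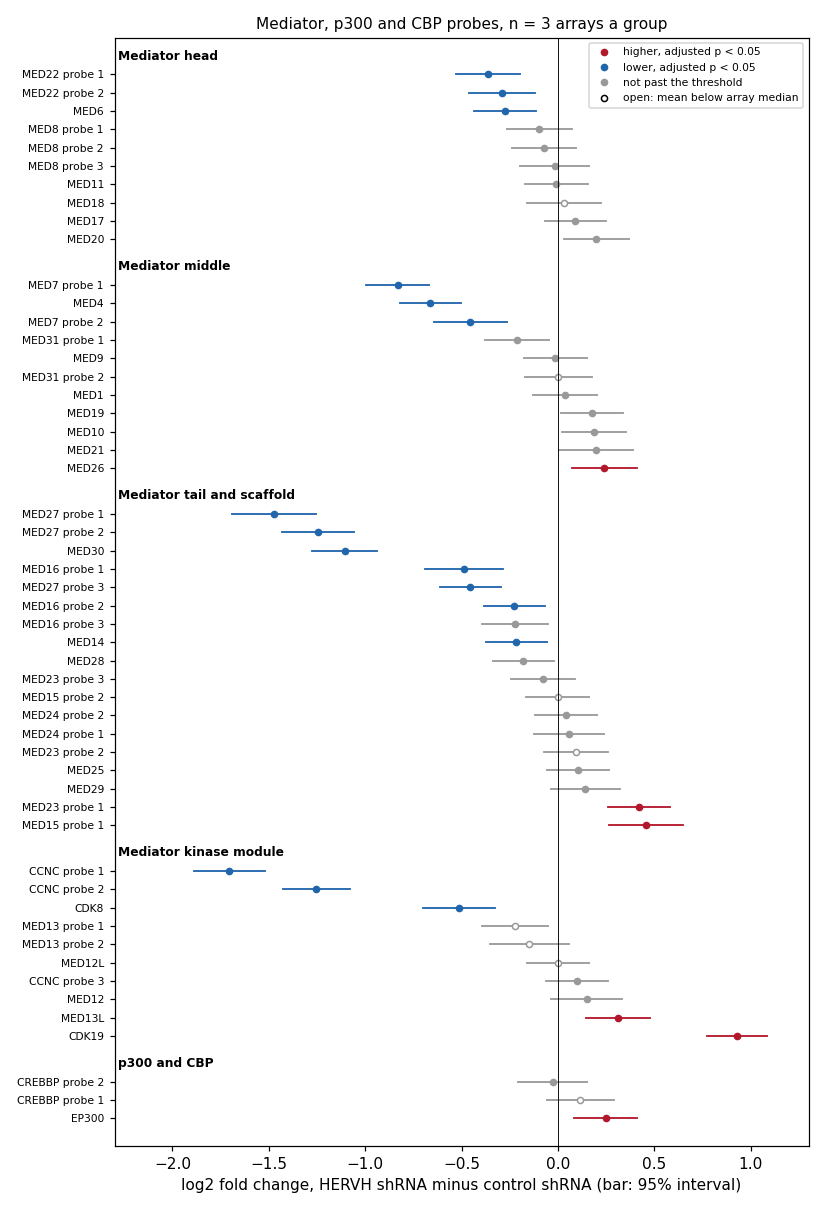
Each row is 1 probe of a Mediator, p300 or CBP gene, grouped by part of the complex, with its log2 fold change (HERVH shRNA minus control shRNA, n = 3 arrays each) and 95% interval. The blue probes, from -1.70 for CCNC probe 1 to -0.22 for MED14, fell, the red ones, up to 0.93 for CDK19, rose, and open circles mark the 8 probes with a mean below the array median.

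The acetyltransferases differed little between the groups. EP300 had 401, 387 and 411 in HERVH shRNA cells, against 350, 317 and 344 in control shRNA cells. The log2 fold change was 0.25 ± 0.08 (limma adjusted p = 0.022), a 1.19-fold rise, but it did not pass with median scaling (adjusted p = 0.17), with no further normalization (adjusted p = 0.063) or without HERVH shRNA replicate 1 or 3 or control replicate 2 (up to 0.11). CREBBP had 2 probes, and the one above the array median gave 607, 529 and 569 in HERVH shRNA cells and 627, 586 and 525 in control shRNA cells. Its groups overlapped, with a log2 fold change of -0.03 (95% interval -0.21 to 0.15). The other probe gave 0.12 (-0.06 to 0.29). EP300 relative to these CREBBP probes changed by 0.27 (exact permutation p = 0.1) and 0.13 (p = 0.5) log2 units.

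Probes of the same gene did not always agree. Of the 12 genes with several probes under the names searched, 3 (MED7, MED22 and MED27) passed on all of them in 1 direction, 4 (CCNC, MED15, MED16 and MED23) passed on some, and 5 passed on none. Of the 8468 gene names of the array with several probes, 10.9% had all of them called, 36.4% some and 52.7% none. Among the 23 genes with 1 probe under the names searched, 9 passed, against 24.6% of all probes and 45.2% of the brighter ones. The name rule did not reach 10 further probes that the array lists under older symbols of 5 of the genes, matched through RefSeq synonyms after the values were seen, and they enter no count above. Of these 10 probes 3 were lower and 0 higher, against 12.5% and 12.1% of all probes and 22.9% and 22.3% of the brighter ones. The 3 lower probes were all above the array median. For MED14 (older symbol CRSP2) none of 5 such probes passed, with log2 fold changes from -0.12 to 0.12, so its fall rests on 1 probe. For MED1 (PPARBP) the probe had 382, 385 and 407 in HERVH shRNA cells, against 498, 533 and 529.7 in control shRNA cells. This was a 1.33-fold fall (log2 fold change -0.41 ± 0.08, limma adjusted p = 2.6e-04), unlike the MED1 probe given above. For MED7 (CRSP9) 1 probe fell 1.53-fold (limma adjusted p = 1.9e-06) and the other had a log2 fold change of 0.04 (adjusted p = 0.86). The MED16 probe (THRAP5) fell by 0.26 on the log2 scale (limma adjusted p = 0.029, groups overlapping) and the MED17 probe (CRSP6) did not pass (log2 fold change 0.14, adjusted p = 0.34). The spread between arrays was small next to the larger changes: the median SD of the 52 probes was 0.07 log2 units in HERVH shRNA cells and 0.08 in control shRNA cells.

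Other genes of the same machinery, in 6 lists, were read on the same arrays. Each gene named from them is given by its called probe with the lowest p, and any other probes of it are left out. Of the probes of these 6 lists 42.9% to 61.5% were called, against 24.6% of all probes and 45.2% of the brighter ones. Partners of p300 and CBP, transcription factors and CITED proteins that bind them, had 8 of 24 probes higher and 6 lower. CITED2, which competes for p300, rose 2.06-fold, the TGF-beta effector SMAD3 rose 1.98-fold and CREB1, the factor after which CBP is named, rose 1.60-fold. Other histone acetyltransferases had 4 of 17 probes higher and 4 lower, led by HAT1 (1.76-fold lower), KAT8 (listed as MYST1, 1.48-fold lower) and NCOA3 (1.38-fold higher). The list of cohesin, which is loaded at Mediator-bound enhancers, and its regulators had 9 of 18 probes lower and 2 higher. STAG2 was 2.04-fold, SMC3 1.77-fold and WAPL (listed as KIAA0261), which is not a cohesin subunit, 1.64-fold lower. RNA polymerase II subunits had 6 of 13 probes lower and 2 higher, led by POLR2B (1.58-fold lower), POLR2G (1.45-fold) and POLR2D (1.40-fold). TFIID and general factors had 9 of 28 lower and 3 higher, led by TAF6, TAF1 and TAF9 (1.67-, 1.62- and 1.68-fold lower). Elongation and bromodomain factors had 2 of 12 lower and 4 higher, among them SUPT5H and CCNT1 (1.43- and 1.33-fold higher) and CCNT2 (1.44-fold lower). Median log2 fold changes of these lists ran from -0.28 for the cohesin list to 0.01 for the elongation factors, against -0.02 for the 52 probes and 0.00 for the array. The lists were not tested against each other.

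**Figure D5:**
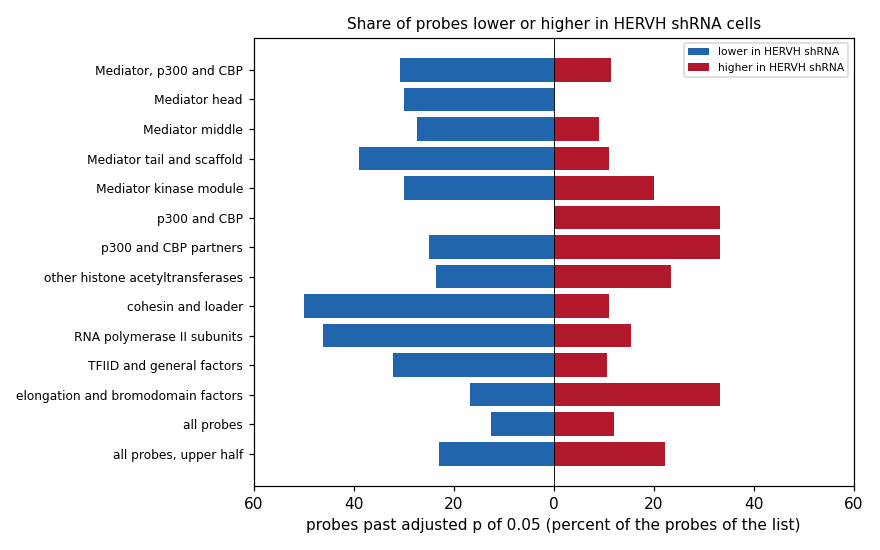
Bars give the percent of the probes of each list with an adjusted p under 0.05, lower in HERVH shRNA cells to the left and higher to the right. The 52 Mediator, p300 and CBP probes had 30.8% lower and 11.5% higher, against 12.5% and 12.1% of all probes and 22.9% and 22.3% of those above the median intensity.

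Markers of the cell state were also read in the same samples. Here too, each gene other than SOX2, POU5F1 and NANOG is given by its called probe with the lowest p. Of 26 probes of 15 pluripotency genes, 14 were lower and 1 (UTF1, 2.72-fold) higher. SOX2 fell 4.34-fold and 1.35-fold by its 2 probes, TERF1 fell 3.42-fold, and POU5F1 and NANOG fell 2.03-fold and 1.32-fold by 1 probe each, while their second probes did not pass (adjusted p = 0.20 and 0.23, limma). The summed intensity of the pluripotency list was 35184 to 37790 in HERVH shRNA cells and 52973 to 54195 in control shRNA cells. Fibroblast markers had 8 of 15 probes higher and none lower, with VIM, COL1A2 and FN1 up 4.40-, 4.26- and 2.46-fold, and a summed intensity of 27075 to 27903 in HERVH shRNA cells, against 11288 to 11958 in control shRNA cells. The control shRNA values of FN1 (49.7 to 57.5) lay below the array median of 72.6. The shares called were 57.7% for the pluripotency and 53.3% for the fibroblast list, against 24.6% of all probes and 45.2% of the brighter ones.

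Neuroectoderm markers had 3 of 12 probes higher (NES 2.61-fold, OTX2 1.47-fold, MAP2 1.25-fold), trophoblast markers 3 of 10 (TFAP2A 2.97-fold, KRT7 1.28-fold), mesoderm markers 1 of 12 (HAND1, 3.88-fold) and endoderm markers 1 of 10 (CXCR4, 1.93-fold), and the only fall in these 4 lists was FOXA2 (1.44-fold). The shares called were 25% for neuroectoderm, 30% for trophoblast, 8.33% for mesoderm and 20% for endoderm markers, near or below the 24.6% of all probes except for the trophoblast list. Their summed intensities were 3767 to 4002, 892 to 913, 1030.1 to 1044 and 584 to 635 in HERVH shRNA cells, against 1799 to 1922, 664 to 692, 872 to 896 and 573 to 588 in control shRNA cells. Single probes carried much of these sums. Without HAND1 the mesoderm sum was 804 to 830 in HERVH shRNA cells and 814 to 836 in control shRNA cells. Without CXCR4 the endoderm sum was 489 to 519 in HERVH shRNA cells and 522 to 532 in control shRNA cells. The neuroectoderm sum without NES was 764 to 800 in HERVH shRNA cells and 656 to 709 in control shRNA cells. The trophoblast sum without TFAP2A was 683 to 708 in HERVH shRNA cells and 598 to 619 in control shRNA cells. Many probes of these 4 lists were dim: above the array median lay 4 of 12 neuroectoderm, 5 of 10 trophoblast, 5 of 12 mesoderm and 1 of 10 endoderm probes. The MAP2, KRT7 and FOXA2 probes had means below that median of 72.6, and the control shRNA values of HAND1, TFAP2A and CXCR4 lay below it. The sizes of these folds are therefore uncertain. The lowest intensity in the table was 28.9, and a value above 0 does not show expression. Detection was not assessed, so no marker could be called present or absent. The part of these cell state differences in the Mediator, p300 and CBP results was not tested, and in RNA from a whole culture fewer cells of a type cannot be told apart from less RNA per cell.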

How the data were processed

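RNA of 6 H1 samples (500 ng each) was amplified, biotin-labelled and read on Illumina arrays (labels' protocols). GenomeStudio is the tool in the submitters' processing notes, without a version. The main values are linear intensities deposited by the authors, with 1 column per sample accession. For their normalization and background treatment nothing was given in the sources used here, and their distributions were close but not identical. Gene names came from the authors' deposited non-normalized table, matched by probe identifier. That table's 12 columns of signal and detection p-values carry running numbers that match no label and were not used, so detection was not assessed. Intensities were floored at 16 (none was lower), converted to log2, quantile normalized, and fitted per probe with limma 3.58.1 in R 4.3.3 (lmFit, eBayes; HERVH shRNA minus control shRNA; Benjamini-Hochberg over 47230 probes). The number of arrays limits the precision. Probes of 1 gene were kept apart.

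Every member could be named. From the other lists, the genes past the threshold with the 3 lowest p were named, each by its probe with the lowest p only. POU5F1, NANOG, SOX2 and the HERVH-associated genes were also named. Members, lists and tests were chosen with earlier results of these data known. Listed genes were matched by symbol, or by a RefSeq synonym of 1 gene. Sequences are RefSeq's. Alternatives concerned normalization, low values, dim probes, variance model, replicate block, array weights, single arrays and threshold. Figures used Python 3.11.15 and matplotlib 3.10.9.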

Additional observations from a re-analysis of the deposited data

How the results depend on the processing

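Of the 22 calls, 16 held in every alternative that gave a value, and the other 6 were probes of MED6, MED22, MED26, EP300, MED16 and MED14. Over all 52 probes and 13 alternatives, 612 of 668 values stayed on their side of the threshold, 26 lost and 30 gained a call, and no called value changed sign. The gained calls were on probes of MED10, MED19, MED20 and MED21, as higher, and of MED13, MED16, MED28 and MED31, as lower. With median scaling the median log2 fold change of the 52 probes was -0.0785, against -0.0159. Leaving out single arrays gave -0.0615 to -0.0111 for that median, 13 to 15 probes lower and 4 to 6 higher among the 52, and 5263 to 5589 lower and 5151 to 5299 higher over the array. Median scaling called 19 of the 52 lower and 4 higher (6640 and 4814 over the array), no further normalization also 19 and 4, and log2(value + 50), dim probes left out and the trended prior 19 and 9 each. The cause was not tested. The alternative with no further normalization was added after seeing the data. With the replicate block, MED14 lost its call (limma adjusted p = 0.053) and MED16 probe 3 gained one (adjusted p = 0.048), and no other call among the 52 probes changed. The deviations of same-numbered samples correlated at 0.09, 0.00 and 0.05, so the numbers were not taken as pairs. However, 4 of 6 arrays correlated best with their own number in the other group, which does not exclude pairing. Detection was not assessed, so whether the 8 probes with a mean below the array median lay above background is unknown.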
